A study of Homo sapiens with 4 samples.

Results

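The D-type cyclins (CCND1, CCND2, CCND3), their partner kinases (CDK4, CDK6) and the inhibitors of these kinases (CDKN1A, CDKN1B, CDKN1C, CDKN2C, CDKN2D) were followed through loss of ZEB2 in MDA-MB-231 cells, which come from a human breast carcinoma, lack the oestrogen and progesterone receptors and look mesenchymal. Members were all probe sets of the Affymetrix U133 Plus 2 array whose platform annotation gave exactly 1 gene symbol and whose symbol was one of these 10 genes. The rule found 25 probe sets of 9 genes among 54675 probe sets. CDKN2C had no probe set under this rule in the table used here, and its expression was not analysed here.

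Each of the 4 groups had 1 array. The groups were cells stably transduced with an shRNA against ZEB2 and cells stably transduced with the pLVTH control vector, then cells transfected with an siRNA pool against ZEB2 and cells transfected with siRNA against luciferase. The siRNA was used at 20 nM, the cells were washed after 24 hours, and RNA was taken after 48 more hours in medium. Labelled cRNA was made from 2 µg of total RNA for the shRNA arrays and from 100 ng for the siRNA arrays, so method, culture history and input RNA cannot be told apart. The labels do not say whether the stable cells were a clone or a pool, and no group had a second culture. All 4 groups are the same cell line, and whether the cultures share every alteration was not tested.

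D-type cyclins are made when a cell receives growth signals. They bind CDK4 or CDK6, and these complexes phosphorylate the retinoblastoma protein and its relatives, which releases E2F factors to switch on the genes of DNA replication. The INK4 inhibitors, here CDKN2D (p19), bind CDK4 and CDK6 and block cyclin binding, while the Cip/Kip inhibitors CDKN1A (p21), CDKN1B (p27) and CDKN1C (p57) act mainly on CDK2 complexes and also help cyclin D and its kinase to assemble. ZEB2 is a zinc-finger transcription factor that binds E-boxes of the type CACCTG, represses epithelial genes such as CDH1 and promotes the epithelial-mesenchymal transition.

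Levels below are log2 expression values (RMA) and differences are knockdown minus control unless the 2 controls are named, so that 1 unit is 2-fold. A value of one probe set cannot be set against that of another, since each probe set has its own response. Probe sets were kept when at least 1 of their 4 values was 4.77 or more, which is the 40th percentile over the array. This kept 35626 probe sets of the array and 24 of the 25 member probe sets. ZEB2 itself, the target, read 3.52 in the shRNA knockdown and 6.12 in its control, and 3.51 in the siRNA knockdown and 6.56 in its control. Differences spread most widely between the siRNA control and the shRNA control, with a standard deviation of 0.905 over the probe sets kept, against 0.486 in the stable pair and 0.252 in the transient pair. The mesenchymal marker VIM read between 13.64 and 14.12 on the 4 arrays. Of the other mesenchymal markers, FN1, CD44 and AXL read between 10.92 and 12.57, and SPARC between 4.45 and 4.88. FN1 differed by 0.54 in the stable pair and -0.98 in the transient pair. Of 5 luminal markers, PGR and FOXA1 stayed under the filter level on every array, and ESR1, GATA3 and ERBB2 were kept. Of 3 leukocyte markers PTPRC stayed under it and CD3E and CD14 were kept, with CD14 at 6.94 and 7.30 in the siRNA knockdown and siRNA control and 4.98 and 5.21 in the shRNA knockdown and shRNA control. CDH1, an epithelial marker, read 4.26 and 3.54 on the arrays of the shRNA knockdown and shRNA control. It read 8.35 and 7.37 on those of the siRNA knockdown and siRNA control. Of the other epithelial markers, KRT8, KRT18 and KRT19 read between 10.74 and 12.43, and EPCAM and CLDN4 between 7.01 and 9.22.

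RefSeq promoter windows (GRCh38.p14, 250 bases before to 50 after an annotated start) were present for 7 member genes with 12 starts in the table used here, and not for CCND1, CCND2 or CDKN1C. The 7 genes include CDKN2C, which had no probe set. All windows were searched for CACCTG on both strands (CACCTG or CAGGTG), because ZEB2 binds this hexamer. Of all 35116 windows, 20.6% held it, and of the 12 member windows 1 did. Shown are this window, at the upstream start of CCND3 (chr6:42048639-42048938, minus strand), with the hexamer in capitals, and both windows of CDK6 (chr7:92836524-92836823 and chr7:92833910-92834209, minus strand), the member with the most probe sets at least 2-fold apart in the stable pair, chosen after its values were seen. No hexamer was found in the CDK6 windows, which says only that these letters are not in them. The shorter CACCT, on both strands, was in 8 of the 12 member windows and in 51.6% of all windows.
CCND3 upstream start: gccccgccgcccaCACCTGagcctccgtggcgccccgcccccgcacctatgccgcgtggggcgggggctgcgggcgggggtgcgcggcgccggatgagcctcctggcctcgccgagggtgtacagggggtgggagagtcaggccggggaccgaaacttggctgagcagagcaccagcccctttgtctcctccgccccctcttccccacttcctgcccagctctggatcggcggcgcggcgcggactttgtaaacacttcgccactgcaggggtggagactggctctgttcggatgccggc
CDK6 upstream start: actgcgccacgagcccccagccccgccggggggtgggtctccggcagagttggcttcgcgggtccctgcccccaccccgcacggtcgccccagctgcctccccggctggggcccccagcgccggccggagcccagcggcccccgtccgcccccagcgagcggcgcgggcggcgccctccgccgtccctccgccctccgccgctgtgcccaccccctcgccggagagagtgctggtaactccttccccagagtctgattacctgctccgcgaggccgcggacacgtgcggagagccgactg
CDK6 downstream start: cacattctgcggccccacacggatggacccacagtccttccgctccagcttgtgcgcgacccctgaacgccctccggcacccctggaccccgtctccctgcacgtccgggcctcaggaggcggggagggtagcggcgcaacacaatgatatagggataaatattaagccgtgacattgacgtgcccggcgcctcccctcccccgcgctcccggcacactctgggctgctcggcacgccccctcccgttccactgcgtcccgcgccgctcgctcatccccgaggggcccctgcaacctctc

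**Figure D1:**
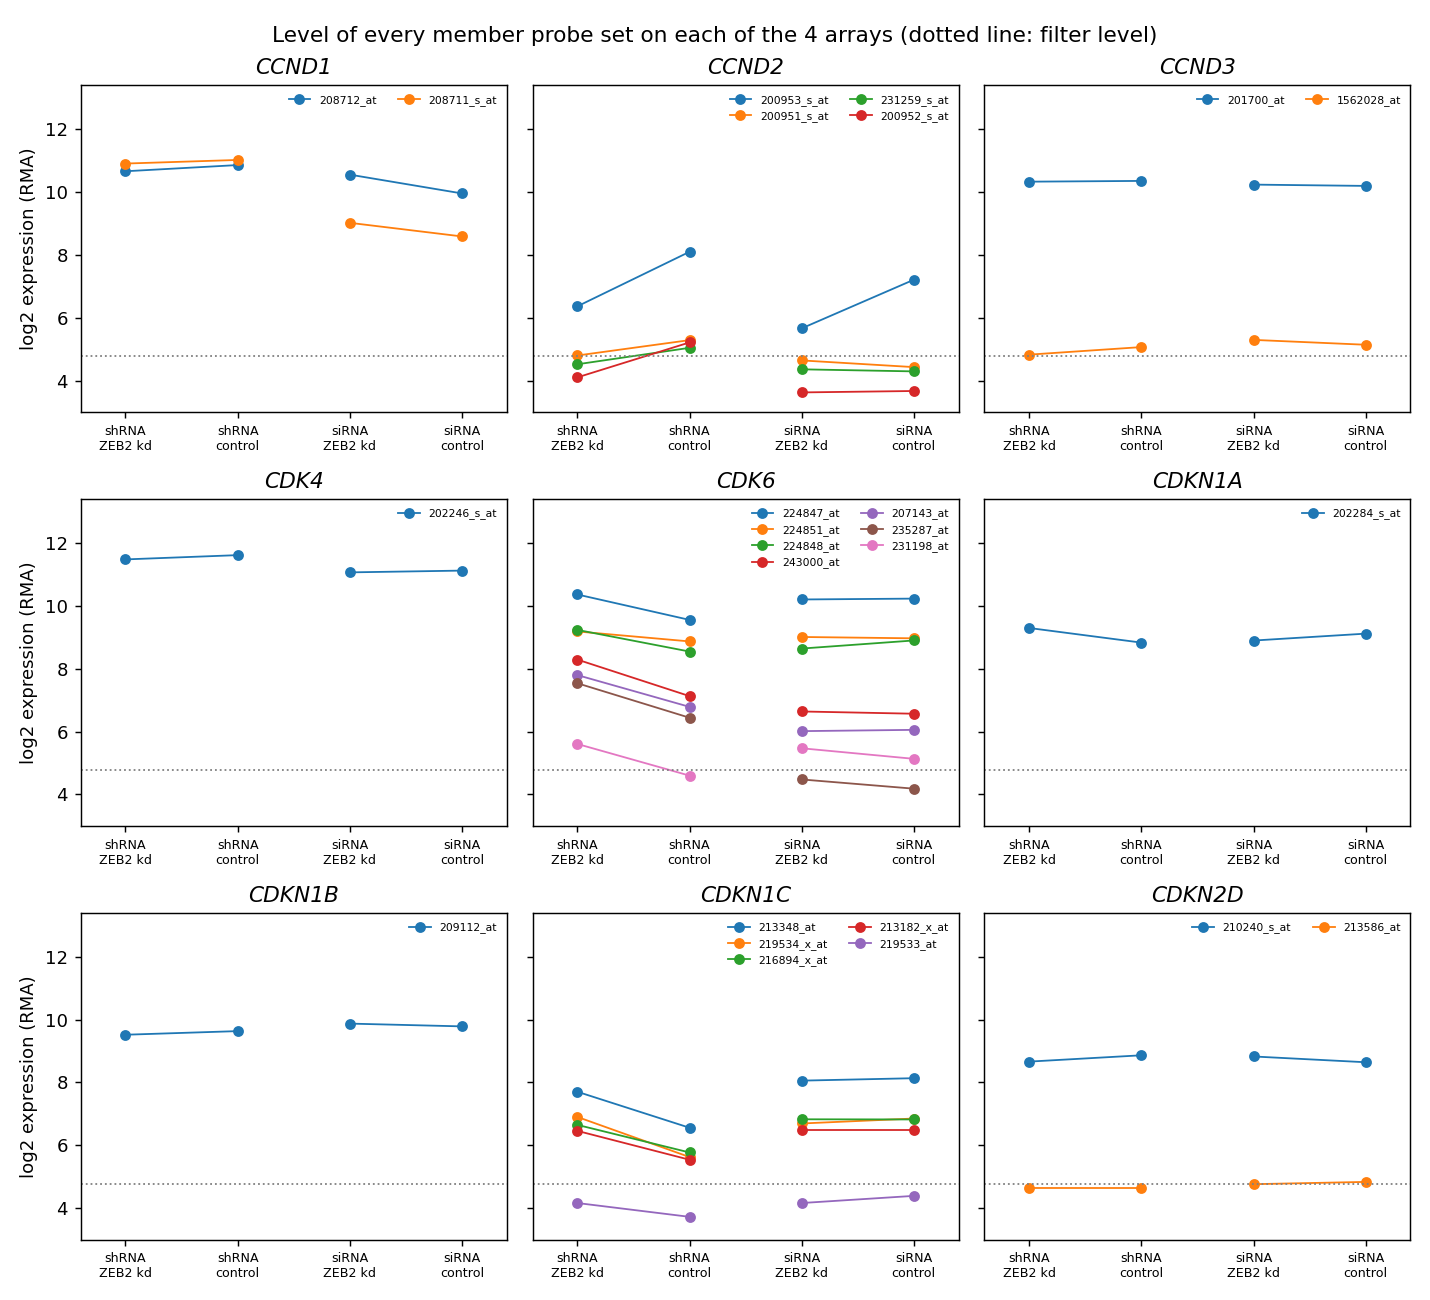
Log2 expression of each member probe set (y axis) on the 4 arrays (x axis), 1 panel per gene and 1 colour per probe set, with a line joining each knockdown to its own control and a dotted line at the filter level of 4.77. The brightest CCND2 probe set is lower in both knockdowns, all CDK6 and CDKN1C probe sets are higher in the shRNA knockdown than in its control, and CCND3, CDK4 and CDKN1B are nearly level. Each point is 1 array, so there is no error bar.

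CCND2, a D-type cyclin, was the member that differed most in either knockdown, and it was lower in both. Its brightest probe set, 200953_s_at, read 6.36 in the shRNA knockdown and 8.10 in the shRNA control. On the siRNA arrays it read 5.66 in the knockdown and 7.21 in the luciferase control. Both knockdown arrays lay below both control arrays on this probe set, with the shRNA control highest and the siRNA knockdown lowest. The difference was -1.73 in the stable pair, 3.32-fold lower, and -1.55 in the transient pair, 2.92-fold lower. It was the 119th lowest of the 35626 differences in the stable pair and the 11th lowest in the transient pair. Of all probe sets kept, 0.0309% were at least 2-fold lower in both pairs, 11 in number, and this was the only member probe set among them.

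The other CCND2 probe sets did not show this in the transient pair. Probe set 200952_s_at read 4.10 in the shRNA knockdown and 5.21 in the shRNA control, a difference of -1.11. On the siRNA arrays it read 3.63 in the knockdown and 3.67 in the control, a difference of -0.05. Both siRNA values were below 4.77, in the dim range that RMA compresses.

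Probe set 200951_s_at read 4.80 in the shRNA knockdown and 5.29 in the shRNA control, and 4.64 in the siRNA knockdown and 4.43 in the siRNA control. Probe set 231259_s_at read 4.52 and 5.04 in the shRNA knockdown and its control, and 4.36 and 4.29 in the siRNA knockdown and its control. Their differences were -0.49 and -0.52 in the stable pair and 0.21 and 0.07 in the transient pair. All 4 CCND2 probe sets were thus lower in the shRNA knockdown, and 2 of 4 were lower in the siRNA knockdown. Probe sets 231259_s_at and 200952_s_at passed the filter through the shRNA control alone, so they had to read lower on the other arrays. The mean over the 4 CCND2 probe sets was -0.96 in the stable pair and -0.33 in the transient pair. CCND2 in the transient pair therefore rested on 1 probe set, the only one above the filter level on the siRNA arrays.

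Among 15082 genes kept, each read by its brightest probe set, the 5 nearest to CCND2 by Euclidean distance over the 3 differences (stable pair, transient pair, control against control) were COL6A3, IGFBP1, NDP, SCG5 and PLA2G4A. COL6A3, a chain of collagen VI, lay at a distance of 0.497 log2 units, with differences of -2.02, -1.28 and -1.19. IGFBP1, which binds insulin-like growth factors, lay at 0.507, with -1.44, -1.16 and -0.73. NDP, which encodes the Wnt-pathway ligand norrin, and SCG5, a secretory granule protein, lay at 0.691 and 0.696, and the phospholipase gene PLA2G4A at 0.833. PLA2G4A reached the filter level in the shRNA control alone, at 5.04. Its stable and control differences, -1.57 and -0.41, therefore had to be negative, which is part of its likeness to CCND2. CCND2 itself had -1.73, -1.55 and -0.89, and likeness was measured over 4 arrays alone.

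CCND1, the D-type cyclin most often amplified in breast cancer, behaved unlike CCND2. Its probe set 208712_at read 10.66 in the shRNA knockdown and 10.85 in the shRNA control, a difference of -0.20. It read 10.55 in the siRNA knockdown and 9.95 in the siRNA control, a difference of 0.60. The siRNA control was the lowest of the 4 arrays and the other 3 lay close together.

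The second CCND1 probe set, 208711_s_at, read 10.90 in the shRNA knockdown and 11.02 in the shRNA control, and 9.02 in the siRNA knockdown and 8.58 in the siRNA control. Its differences were -0.11 and 0.43. Both CCND1 probe sets were higher in the siRNA knockdown, 208712_at by 1.51-fold, where 1.02% of all probe sets were at least 1.5-fold higher. Neither reached 2-fold in either pair.

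CCND3, the remaining D-type cyclin, differed little. Probe set 201700_at read 10.33 in the shRNA knockdown and 10.35 in its control, and 10.23 in the siRNA knockdown and 10.19 in its control. Its dimmer probe set, 1562028_at, differed by -0.24 in the stable pair and 0.15 in the transient pair, on levels between 4.83 and 5.30.

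Of the kinases, CDK6 was higher in the stable knockdown on every probe set, and CDK4 was not. The brightest CDK6 probe set, 224847_at, read 10.36 in the shRNA knockdown and 9.55 in the shRNA control, a difference of 0.81. It read 10.20 in the siRNA knockdown and 10.23 in the siRNA control, a difference of -0.03. The shRNA control was low on this probe set and the other 3 arrays lay close together. Probe set 243000_at had the highest CDK6 difference, reading 8.29 in the shRNA knockdown and 7.13 in the shRNA control, 2.24-fold higher.

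All 7 CDK6 probe sets were higher in the shRNA knockdown, by 0.32 to 1.16 with a median of 1.01, and 4 of them by at least 2-fold. Of these 4, 207143_at (1.009) and 231198_at (1.006) lay just past the threshold. Probe set 231198_at read under the filter level, at 4.60, in the shRNA control. In the transient pair 4 were higher and 3 lower, between -0.26 and 0.34. The 7 probe sets read the same RNA samples and are not replicates. CDK4 has a single probe set, which read 11.47 in the shRNA knockdown and 11.61 in its control, and 11.06 in the siRNA knockdown and 11.12 in its control. It was 1.10-fold lower in the stable pair and 1.04-fold lower in the transient pair.

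CDKN1C, which encodes p57, was the inhibitor that differed most, and of the 2 knockdowns only the stable one differed from its control by 2-fold. Its brightest probe set, 213348_at, read 7.70 in the shRNA knockdown and 6.56 in the shRNA control, 2.21-fold higher. It read 8.06 in the siRNA knockdown and 8.14 in the siRNA control, a difference of -0.08. The shRNA control was the lowest array and the shRNA knockdown lay between it and the siRNA arrays.

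Probe set 219534_x_at read 6.90 in the shRNA knockdown and 5.63 in the shRNA control, a difference of 1.27. The remaining 3 CDKN1C probe sets differed by 0.88, 0.92 and 0.44 in the stable pair, the last of them (219533_at) under the filter level on every array. In the transient pair the 5 lay between -0.23 and 0.005. Of the 5 probe sets, 3 have names ending in _x_at, which marks probes that can also bind other transcripts.

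The other inhibitors were nearly level. CDKN1A, which encodes p21, read 9.29 in the shRNA knockdown and 8.83 in its control, and 8.89 in the siRNA knockdown and 9.11 in its control. Its differences, 0.46 and -0.22, ran opposite ways and neither reached 1.5-fold. CDKN1B, which encodes p27, read 9.52 and 9.63 in the shRNA knockdown and its control and 9.87 and 9.78 in the siRNA knockdown and its control. CDKN2D, an INK4 inhibitor, differed by -0.20 and 0.18 on its brighter probe set 210240_s_at, which read between 8.64 and 8.86. Its other probe set, 213586_at, read 4.65 on both shRNA arrays and 4.77 and 4.84 in the siRNA knockdown and its control. The siRNA knockdown value lay just under the filter level, so this probe set was kept through the siRNA control alone.

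**Figure D2:**
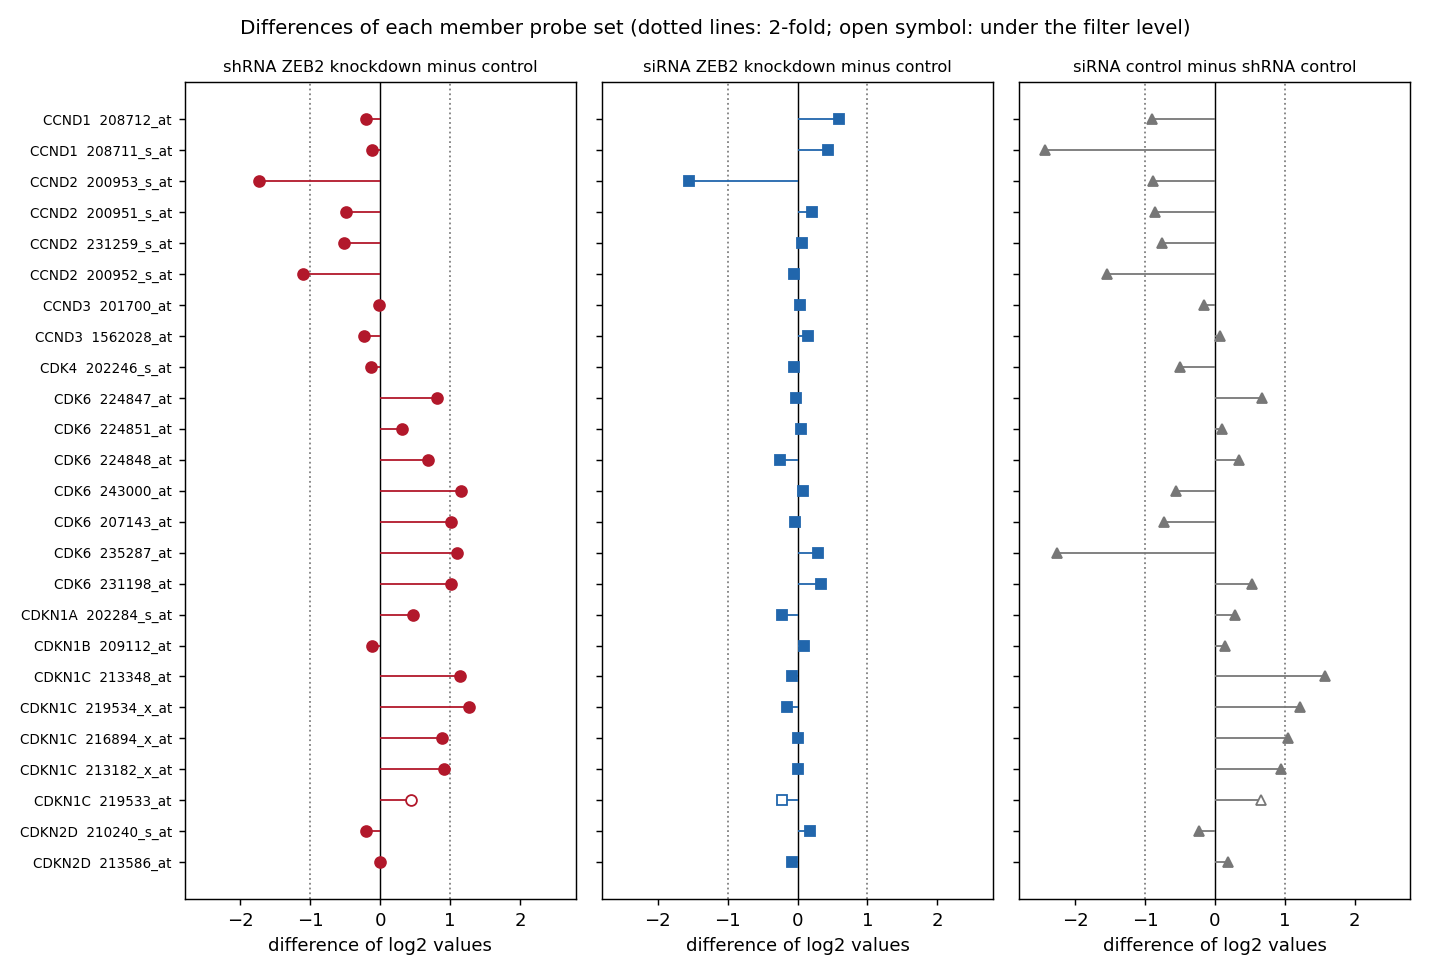
Difference of log2 values (x axis) for each member probe set (rows) in the stable pair, the transient pair and between the controls, with dotted lines at 2-fold and an open symbol for the probe set under the filter level. In the transient pair 1 CCND2 probe set passes 2-fold and every other lies between -0.26 and 0.60, while the CDK6 and CDKN1C probe sets lie to the right in the stable pair.

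In the stable pair 6 of the 24 member probe sets kept were at least 2-fold higher, 4 of CDK6 and 2 of CDKN1C, where 2.39% of all probe sets kept were at least 2-fold higher. The 2 at least 2-fold lower were both of CCND2, where 1.96% of all were, and 1 of these, 200952_s_at, was kept through the shRNA control alone. Read by the brightest probe set of each gene, 1 of 9 genes was at least 2-fold higher, CDKN1C, where 2.39% of all genes were, and 1 lower, CCND2, where 2.08% were. CDK6 was then at 0.81, short of 2-fold. In the transient pair 1 was at least 2-fold lower, that of CCND2, against 0.174% of all, and 0 were at least 2-fold higher, against 0.0646% of all. The median difference of the 24 was 0.16 in the stable pair and 0.02 in the transient pair, and that of all probe sets kept was -0.01 and -0.02. At 1.5-fold, 10 members were higher in the stable pair (all probe sets 8.14%) and 2 lower (7.04%), and in the transient pair 1 was higher (1.02%) and 1 lower (2%). At 3-fold 1 member was left in the stable pair, CCND2 200953_s_at, lower (0.472% of all), and 0 were higher (0.685%). None in the transient pair reached 3-fold, where 0.00281% of all were higher and 0.0253% lower by that much. With 1 array per group no test exists within a pair.

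The stable difference of CDKN1C depended on which control was used, and that of CDK6 did so in size. Set against the siRNA control instead, which was chosen after seeing the data and also changes method and input RNA, the shRNA knockdown had 4 of 24 member probe sets higher by 2-fold or more, where 8.37% of all probe sets were, and 0 lower by that much, where 7.25% were. They were 208711_s_at of CCND1 (2.32) and 3 of CDK6, 235287_at (3.35), 207143_at (1.74) and 243000_at (1.72). All 7 CDK6 probe sets were still higher, the other 4 by 0.13, 0.22, 0.34 and 0.47. Of the 7, 235287_at reached the filter level on the shRNA arrays alone, so it had to read higher than the siRNA control. The CDKN1C probe sets then lay between -0.43 and 0.05. CCND2 200953_s_at lay at -0.84, and the other CCND2 probe sets at 0.37, 0.23 and 0.43. The one at 0.37, 200951_s_at, also reached the filter level on the shRNA arrays alone and had to read higher.

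A common effect of ZEB2 knockdown was tested with limma over all 4 arrays and all probe sets kept, with the method as a block. Only 1 residual degree of freedom is left in this fit. The error behind its p-values is therefore how far the stable and the transient difference of a probe set disagree, moderated by eBayes over all probe sets kept. Spread between replicate cultures does not enter it, since no group had a second culture. CCND2 200953_s_at differed on average by -1.64 ± 0.16 (SE), with a limma p of 0.000515 before and 0.975 after adjustment (Benjamini-Hochberg over all probe sets kept). CDK6 231198_at had 0.67 ± 0.23 and CDK6 235287_at 0.69 ± 0.25, with unadjusted p of 0.041 and 0.049 in limma and adjusted p of 0.975 each. Both were higher in each pair, though 235287_at read under the filter level on both siRNA arrays. Of all probe sets, 0% passed at an adjusted p of 0.05, and so 0 members did. At an unadjusted p under 0.05 limma gave 3 of 24 members, those just named, and 1038 of 35626 probe sets. ZEB2 itself had an adjusted p of 0.975, so 0 calls do not show that members were level.

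The 2 control cultures, both of which keep ZEB2, also differed in these genes. In the siRNA control against the shRNA control 3 member probe sets were at least 2-fold higher, all of CDKN1C, where 9.43% of all probe sets were. A further 3 were at least 2-fold lower, 1 each of CCND1, CCND2 and CDK6, where 9.44% were. Of these, CCND2 200952_s_at was kept through the shRNA control alone and CDK6 235287_at through the 2 shRNA arrays, so both had to read lower in the siRNA control. At 1.5-fold 5 were higher and 8 lower, against 19.2% and 18.4% of all, and at 3-fold 0 and 2, against 3.7% and 3.97%. CDKN1C 213348_at, at 8.14 in the siRNA control against 6.56 in the shRNA control, was 2.98-fold higher. All 5 CDKN1C probe sets were higher in the siRNA control, by 0.67 to 1.57, and CCND2 200953_s_at was lower, at -0.89. The other 3 CCND2 probe sets, at -1.54, -0.86 and -0.75, reached the filter level on shRNA arrays alone and had to read lower.

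Probe sets of CCND1 and of CDK6 disagreed between the controls. CCND1 208711_s_at differed by -2.43 and 208712_at by -0.90. CDK6 235287_at was 4.77-fold lower on the siRNA control array (4.19, under the filter level) than on the shRNA control array (6.44), and 243000_at and 207143_at differed by -0.56 and -0.73. The other 4 CDK6 probe sets were higher in the siRNA control, by 0.10 to 0.68. The direction of CDK6 between the cultures thus depended on the probe set. Where in the transcript each probe set lies was not analysed here.

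The array's control probe sets, which read the 3′ and 5′ ends of the same transcript, also differed between methods. The 3′ minus 5′ value of ACTB was 0.52 and 0.50 in the siRNA knockdown and siRNA control, and -0.03 and -0.04 in the shRNA knockdown and shRNA control. That of GAPDH was 0.19 and 0.11 on the siRNA arrays and -0.07 and -0.07 on the shRNA arrays in the same order. The 5′ end of these controls was thus read more weakly on the siRNA arrays, and the part of this in the CCND1 and CDK6 differences was not tested. Some marker genes differed between the methods as well. Of 6 epithelial markers kept, 6 were higher in the siRNA control, where 54.0% of all genes were by their brightest probe set. CDH1 reached the filter level on the siRNA arrays alone and so had to be higher there. It had the largest control difference of the 6, at 3.83. The summed log2 level of the 6 was 60.2 in the siRNA control and 53.5 in the shRNA control. In the siRNA knockdown it was 60.9 and in the shRNA knockdown 56.4. Only 1 of the 6, CDH1, passed for siRNA against shRNA, with a limma adjusted p of 0.012. The limma adjusted p of the others lay between 0.067 (EPCAM) and 0.606 (KRT18). KRT19 read 10.77 in the siRNA knockdown and 11.43 in the shRNA knockdown. KRT18 was also lower in the siRNA knockdown than in the shRNA knockdown, and the remaining epithelial markers were higher. The fibroblast marker LUM was at 8.99 in the siRNA control, 2.92 in the shRNA control, and 8.71 and 6.80 in the siRNA and shRNA knockdowns. LUM thus also differed by 3.89 within the stable pair, where the method was the same. It did not pass for siRNA against shRNA, with a limma adjusted p of 0.076. Of the 4 fibroblast markers 2 were higher and 2 lower in the siRNA control, their sums over the shRNA knockdown, shRNA control, siRNA knockdown and siRNA control being 26.1, 22.0, 28.5 and 28.2. The part of these marker lists, or of CD14, in the member differences was not tested.

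The same limma fit compared the 2 siRNA arrays with the 2 shRNA arrays, with knockdown as a term. Of all probe sets kept, 17.5% passed at an adjusted p of 0.05, 7.97% higher and 9.55% lower on the siRNA arrays, and 3 of the 24 member probe sets (12.5%) did, all lower, a smaller share than over the whole array. CCND1 208711_s_at fell by 2.16 ± 0.22 (SE) on the siRNA arrays with a limma adjusted p of 0.018, and CDK6 235287_at fell by 2.66 ± 0.25 with 0.016, but it was kept through the 2 shRNA arrays alone and so had to be lower on the siRNA arrays. CCND2 200953_s_at fell by 0.80 ± 0.16 with a limma adjusted p of 0.047, which was between 0.049 and 0.467 in the 5 other fits and passed in 1 of them. CCND1 208712_at fell by 0.50 ± 0.26 with a limma adjusted p of 0.240. The call for CCND1 thus rested on 1 of its 2 probe sets, and that for CDK6 on 1 of 7. CDK6 207143_at and 243000_at fell by 1.26 and 1.10 but did not pass, with limma adjusted p of 0.064 and 0.088. CDK6 224848_at and 224851_at were lower by 0.12 and 0.04, and 224847_at and 231198_at higher by 0.26 and 0.20.

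The RB and E2F genes on which these kinases act were read from lists chosen with earlier results known, by the brightest probe set of each gene. Of 14 E2F target genes kept, which include the MCM helicase subunits and nucleotide synthesis enzymes, 1 was higher and 13 lower in the shRNA knockdown, with a median difference of -0.36. The siRNA knockdown had 11 higher and 3 lower and a median difference of 0.09. The medians over all 15082 genes were -0.02 in each pair, and 0 of the 14 reached 2-fold in either pair. Of all 15082 genes, 46.6% were higher in the stable pair and 46.0% in the transient pair. The same shares apply to the lists below. RRM2, a subunit of ribonucleotide reductase, had the largest mean difference of these, at -0.84 and 0.13, but its other probe set gave -0.03 and -0.12. Between the controls all 14 were lower on the siRNA array, where 54.0% of all genes were higher. The median of the 14 was -0.74, against 0.06 over all genes.

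The pocket proteins, which hold E2F in check, were lower in the shRNA knockdown in 3 of 3 cases with a median of -0.51, and higher in 2 of 3 in the siRNA knockdown with a median of 0.33. RBL1, which encodes p107, read 7.51 in the shRNA knockdown and 8.59 in its control, and 7.68 in the siRNA knockdown and 7.35 in its control. Its differences were -1.08 and 0.33, and its remaining 3 probe sets ran from -0.92 to -0.12 in the stable pair and from -0.40 to 0.23 in the transient pair. Among the genes kept, 2.08% were at least 2-fold lower in the stable pair. CCNA1, a cyclin A gene, was the other list gene past 2-fold, reading 7.57 in the shRNA knockdown and 8.98 in its control, and 6.88 in the siRNA knockdown and 7.09 in its control.

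Cyclin E, cyclin A and CDK2 genes were otherwise short of 2-fold, with medians of -0.42 and -0.04 over 6 genes, 2 higher and 4 lower in each pair. E2F and DP factors had medians of -0.12 and 0.02 over 10 genes, 4 higher and 6 lower and then 6 higher and 4 lower, with the repressor E2F8 at -0.51 and 0.54. The CDK-activating kinase, which phosphorylates CDK4, CDK6 and CDK2 on their activation loops, had medians of 0.52 and -0.05 over 3 genes, 2 higher and 1 lower and then 1 higher and 2 lower, and its catalytic subunit CDK7 at 0.70 and -0.30. Genes of turnover and folding of D cyclins, CDK4 and p27 had medians of 0.02 and -0.13 over 10 genes, 5 higher and 5 lower and then 2 higher and 8 lower. SKP2, which targets p27 for degradation, differed by -0.38 and -0.57 on an _x_at probe set, and its other 2 probe sets ran from -0.20 to 0.03 in the stable pair and from -0.58 to 0.10 in the transient pair.

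Upstream transcription factors had medians of -0.29 and -0.12 over 7 genes, 2 higher and 5 lower and then 3 higher and 4 lower, with MYC at 0.64 and -0.26. Of the other INK4 genes, CDKN2A and CDKN2B, both read slightly lower in the stable pair on their brightest probe set. CDKN2A read between 5.88 and 6.17 on the 4 arrays, with differences of -0.27 and 0.03. Whether either transcript is present in these cells was not analysed here. CDKN2B, at -0.16 and -0.34, had a second probe set at 0.06 and 0.23. Its brightest probe set reached the filter level in the siRNA control alone, at 4.92, so its transient difference had to be negative. In each of these lists 0 genes passed the limma test of a common knockdown effect, but 0% of all probe sets kept passed it, those of ZEB2 included.

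**Figure D3:**
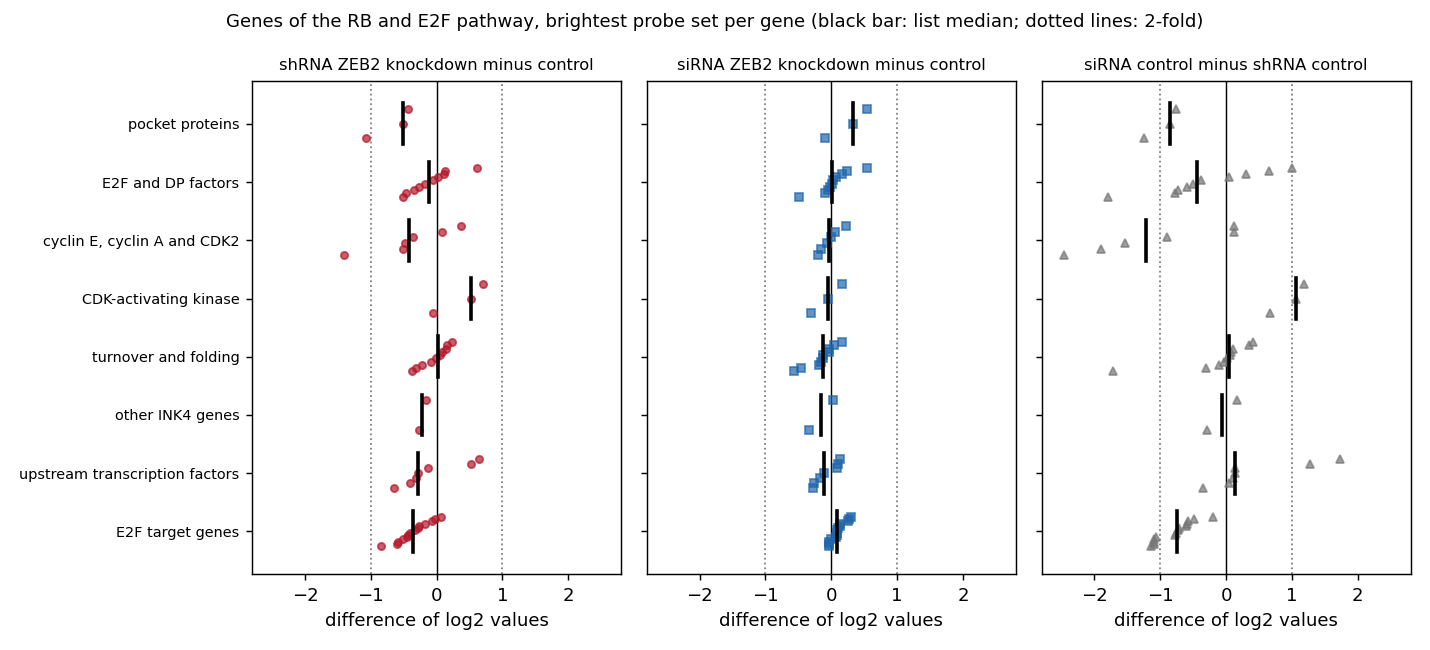
Difference of log2 values (x axis) for the genes of each RB and E2F pathway list (rows), each point the brightest probe set of 1 gene, with a black bar at the list median and dotted lines at 2-fold. E2F target genes lie mostly left of 0 in the stable pair (13 of 14) and between the controls (14 of 14), and mostly right of 0 in the transient pair (11 of 14). Of all genes kept, 46.6% lie right of 0 in the stable pair, 46.0% in the transient pair and 54.0% between the controls.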

How the data were processed

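RNA of 4 MDA-MB-231 cultures was measured on Affymetrix U133 Plus 2 arrays, 1 array per group. The authors deposited RMA values on the log2 scale for each probe set, and the submitters' processing notes name RMA and affy without versions. RMA corrects background, gives the arrays 1 distribution (sorted values lay within 0.0805 of their mean) and summarises probes, which hides changes in total RNA and compresses dim values. Detection per probe was not analysed here. Precision is limited by having 4 arrays.

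Of 54675 probe sets, 41097 had 1 symbol in the platform annotation, 1801 several and 11777 none. RefSeq (GRCh38.p14, for names) held 41043 of the first kind, and 0 symbols changed.

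Differences were counted at 2-fold. limma 3.58.1 (R 4.3.3; lmFit, eBayes with trend, 2-sided, Benjamini-Hochberg) tested knockdown and method; it was tested on simulated data. Named genes were every member probe set, the 5 genes nearest to CCND2 and, of each pathway list, genes past 2-fold in a pair or else the 1 with the largest mean absolute difference. Of the list genes, 2 of the pathway and 1 marker had no probe set with 1 symbol in the table and were not analysed here. Members and lists were chosen with earlier results of these data known. Alternatives were fold thresholds of 1.5 and 3, other filters, scalings, probe set choices and limma settings. Figures used matplotlib 3.10.9 in Python 3.11.15.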

Additional observations from a re-analysis of the deposited data

Results flagged for a closer look

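In 15 of the 24 member probe sets kept, and in 5 of the 8 pathway genes named, the stable and the transient difference had opposite signs, as did 50.6% of all probe sets kept. Each direction is that of 1 knockdown array against 1 control array, no minimum size was set, and the difference between the pairs was not tested. Of the D-type cyclins, CCND1 differed by -0.20 in the stable and 0.60 in the transient pair on 208712_at, and by -0.11 and 0.43 on 208711_s_at. CCND2 gave -0.49 and 0.21 on 200951_s_at, and -0.52 and 0.066 on 231259_s_at, in the same order of pairs. Probe set 231259_s_at was kept through the shRNA control alone, so its stable difference had to be negative. CCND3 gave -0.024 and 0.041 on 201700_at, and -0.24 and 0.15 on 1562028_at.

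CDK6 differed by 0.81 in the stable and -0.027 in the transient pair on 224847_at, by 0.69 and -0.26 on 224848_at, and by 1.01 and -0.041 on 207143_at. Among the inhibitors, CDKN1A 202284_s_at gave 0.46 and -0.22 and CDKN1B 209112_at gave -0.12 and 0.088 in the same order. CDKN1C gave 1.14 and -0.077 on 213348_at, and 1.27 and -0.16 on 219534_x_at. CDKN2D gave -0.20 and 0.18 on 210240_s_at, and 0.00060 and -0.072 on 213586_at, whose stable values were level. Probe set 213586_at was kept through the siRNA control alone, so its transient difference had to be negative.

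Of the pathway genes, RBL1 differed by -1.08 in the stable and 0.33 in the transient pair, E2F8 by -0.51 and 0.54, and RRM2 by -0.84 and 0.13. CDK7 gave 0.70 and -0.30, and MYC 0.64 and -0.26, in the same order.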

How the results depend on the processing

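Counts of member probe sets past 2-fold were 8 in the stable pair, 1 in the transient pair and 6 between the controls. At 1.5-fold they were 12, 2 and 13, and at 3-fold 1, 0 and 2. Without a filter, with a filter on the mean or at the 60th percentile, with median centring or cyclic loess and without _x_at probe sets they lay between 6 and 8, at 1, and between 4 and 6. With the siRNA control in place of the shRNA control, chosen after seeing the data as was the filter on the mean, the stable count was 4. limma called 0 members for knockdown in every fit, also without the method block. For siRNA against shRNA it called 3, and 2 or 3 under other filters, moderation or terms, but 0 with the brightest probe set of each gene, since the CCND1 and CDK6 probe sets called are not the brightest and CCND2 then had an adjusted p of 0.065. Of 54 single-gene alternatives 52 moved by less than the standard deviation of all differences in that pair. The exceptions were CCND2 averaged over its probe sets, at -0.96 and -0.33. Of the single-gene differences past 2-fold, 0 changed sign. The small transient difference of CDK6 did, from -0.027 on the brightest probe set to 0.060 averaged over its probe sets and 0.0052 with cyclic loess. Replicate cultures could not be paired because each group had 1 array. The method served as the block, which sets each knockdown against its own control. Single arrays and dim probe sets limit every value.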

Other observations

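Of 55 genes kept on the RB and E2F pathway lists, each read by its brightest probe set, 7 passed the limma test of siRNA against shRNA arrays (12.7%), a share close to the 13.3% of all 15082 genes. They were CCNE2, CCNA2, CDK2, CCNH, SKP2, KLF4 and MCM4. The 3 with the lowest adjusted p are given with their values, chosen after these were seen. CCNE2, a cyclin E gene that activates CDK2 after the D cyclins have acted, read 8.01 and 8.09 in the siRNA knockdown and siRNA control, and 10.06 and 10.54 in the shRNA knockdown and shRNA control, with a limma adjusted p of 0.016. SKP2 read 7.97 and 8.54 in the siRNA knockdown and siRNA control, and 9.89 and 10.26 in the shRNA knockdown and shRNA control, with 0.018 by the same test. KLF4, a transcription factor that induces CDKN1A in other cells, was higher on the siRNA arrays, at 11.51 and 11.41 in the siRNA knockdown and siRNA control and 9.39 and 9.68 in the shRNA knockdown and shRNA control, with 0.017.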
